A study of Mus musculus with 6 samples.

Results

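The purinergic P2 receptors of the mouse stria vascularis are described here by the signals of P2rx2, P2rx3, P2rx4, P2rx7, P2ry1, P2ry2, P2ry4, P2ry6, P2ry12 and P2ry14. The members were all probe sets of the array whose platform annotation names 1 of these 10 genes and no other gene, which gave 17 of the 45037 probe sets tested and 10 of 18193 genes. Stria vascularis was microdissected from adult 129S6 mice, without perfusion of the vessels, from Slc26a4-/- mice aged P153 ± 1 and from Slc26a4+/+ mice aged P148 ± 3. Slc26a4 encodes the anion exchanger pendrin, and both alleles were disrupted in every cell of the Slc26a4-/- mice. Each genotype had 3 arrays, and each array carried RNA pooled from 2 animals after 2 rounds of amplification.

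P2 receptors are cell surface receptors for extracellular nucleotides. P2X receptors are cation channels that open when ATP binds, and P2Y receptors act through G proteins, either on phospholipase C and stored Ca2+ or on adenylyl cyclase. In the cochlea, ATP released into the fluid spaces is known to open P2X2 channels that carry cations out of the endolymph and to act on P2Y4 receptors of strial marginal cells, which lowers their K+ secretion. Ecto-nucleotidases at the cell surface break the nucleotides down.

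Some facts of the arrays bear on every comparison. Slc26a4 itself, by a probe set whose place relative to the deleted part was not checked, had signals of 520, 717 and 619 in Slc26a4-/- against 1354, 1262 and 793 in Slc26a4+/+ stria vascularis. The groups did not overlap, and the limma test gave an adjusted p of 0.119. The X-inactivation transcript Xist reached 5634, 5530 and 5863 in Slc26a4-/- against 771, 3358 and 1022 in Slc26a4+/+, while the Y-linked gene Eif2s3y gave 3.1, 3.6 and 3.1 in Slc26a4-/- against 1541, 639.9 and 805 in Slc26a4+/+. All 3 Slc26a4+/+ arrays were thus above background for both transcripts, the Slc26a4-/- arrays for Xist alone, and sex and genotype cannot be told apart. Gapdh control signals at the 3′ end over those at the 5′ end, a measure of RNA integrity and amplification, gave ratios of 3.70, 3.80 and 3.34 in Slc26a4-/- against 2.25, 7.19 and 10.5 in Slc26a4+/+. A background level was set on each array from 44 olfactory receptor probe sets, by their 95th percentile, and ran from 187 to 214 in Slc26a4-/- against 199.7 to 319 in Slc26a4+/+. A probe set was above background in a genotype when it exceeded this level on at least 2 of the 3 arrays. The arrays hold tissue, so that fewer cells of a type and less RNA per cell cannot be told apart.

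P2rx2 and P2ry14 rose in Slc26a4-/- stria vascularis, and 0 of the 10 receptor genes fell by limma, 0 also at an unadjusted p under 0.05. At that unadjusted level limma gave 1542 of all 18193 genes as higher and 1168 as lower. These are the base for the unadjusted limma counts of the lists below. The paired test of the methods gave 1 probe set, that of P2ry1, as lower at an unadjusted p under 0.05, where 4.88% of all probe sets were, and 0 after adjustment. P2ry1 was above background on 1 of the 6 arrays. P2rx2 and P2ry14 were above background on all 3 Slc26a4-/- arrays and on 0 of the 3 Slc26a4+/+ arrays. The background was higher on Slc26a4+/+ replicates 2 and 3 (269 and 319) than on the Slc26a4-/- arrays (187 to 214). On these replicates P2rx2 had 239.7 and 265, above every Slc26a4-/- background, so its count depends on each array's own level. The other 8 genes did not pass the threshold of an adjusted p of 0.05 by limma with Benjamini-Hochberg adjustment over all probe sets. By gene, each represented by its probe set of highest mean log2 signal, 2 of 10 were called higher, where 1.88% of all genes were, and 0 of 10 lower, where 0.803% were. By probe set, 2 of 17 were called higher, where 1.19% of all probe sets were, and 0 lower, where 0.54% were. For 4 of the 17 probe sets the lowest Slc26a4-/- signal exceeded the highest Slc26a4+/+ signal, where 8.46% of all probe sets had this pattern, and 0 had the opposite pattern, where 9.4% did. The median log2 fold change was 0.09 over the 17 probe sets and −0.06 over all probe sets, and 9 of the 17 were above 0.

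**Figure D1:**
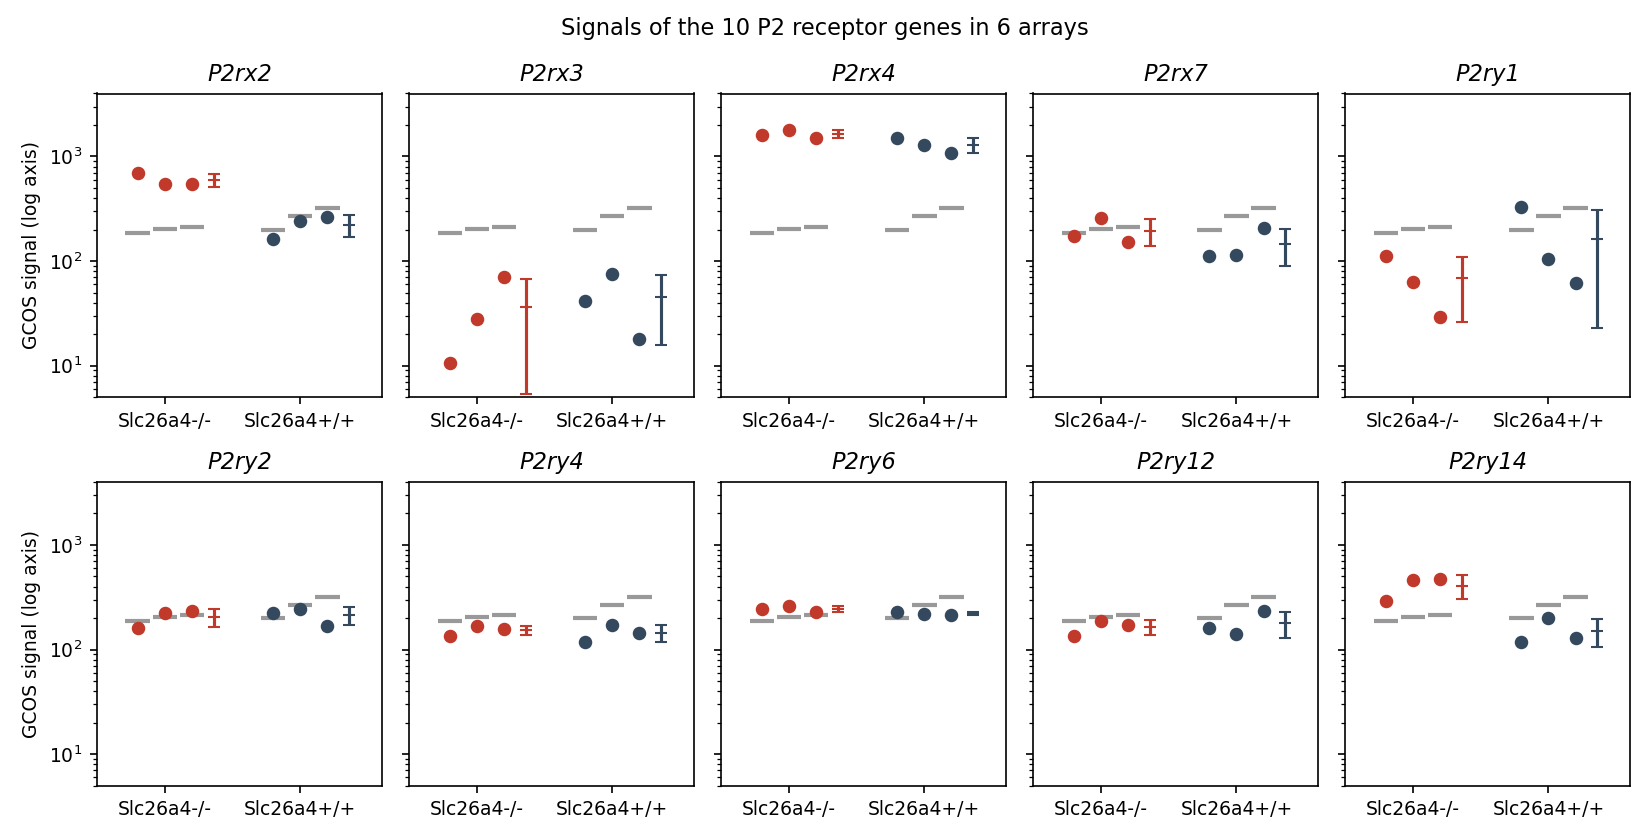
Signal of each P2 receptor gene (vertical log axis, GCOS signal) on the 3 Slc26a4-/- arrays (red, left) and the 3 Slc26a4+/+ arrays (blue, right), 1 point per array with the mean and SD beside them. Grey bars mark each array's background. P2rx2 and P2ry14 lie above background on each Slc26a4-/- array and below it on each Slc26a4+/+ array, and P2rx4 lies above it on all 6.

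Of the P2X channels, P2rx2 encodes a subunit of ATP-gated channels with slow desensitization. Its probe set 1435212_at had signals of 694, 550.3 and 543 in Slc26a4-/- against 163, 239.7 and 265 in Slc26a4+/+ stria vascularis. The lowest Slc26a4-/- array was above the highest Slc26a4+/+ array. The log2 fold change was 1.44 ± 0.24 (SE, 95% interval 0.90 to 1.98, n = 3 each), with a limma adjusted p of 0.0167. Since the Slc26a4+/+ signals were below background, the estimate is also given as a bound of 2.29-fold. It was taken against the higher of the background and the measured signal on each Slc26a4+/+ array. Such a bound holds for the estimate only and carries no sampling error, so the true change can be smaller.

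The call on P2rx2 was lost without any single Slc26a4-/- array, at adjusted p of 0.0832 to 0.12, and without Slc26a4+/+ replicate 2, at 0.0539, while the log2 fold change stayed between 1.23 and 1.58 over the fits that left out 1 array. With log2 Xist as a covariate it was 1.12 at an adjusted p of 0.626, and with the Gapdh ratio as a covariate it was 1.64 at an adjusted p of 0.00473. Markers of spiral ligament fibrocytes, the cells that lie next to the stria, moved in the same direction in part. Of 7 measured, 3 rose and 0 fell, and all 7 were above background in a genotype. Their summed signal was 27739 to 29860 in Slc26a4-/- against 20405 to 23424 in Slc26a4+/+. Car3, the brightest of them, held much of this sum. It had 16190, 15333 and 15359 in Slc26a4-/- against 11994, 12758 and 12837 in Slc26a4+/+ and did not pass (adjusted p = 0.363 by limma). Otos, a protein of fibrocytes, had 2583, 2770 and 1751 in Slc26a4-/- against 518, 804 and 585 in Slc26a4+/+. Dcn had 2974, 3475 and 2745 in Slc26a4-/- against 1263, 984 and 880 in Slc26a4+/+, whereas Coch had 2695, 2743 and 1983 in Slc26a4-/- against 3924, 1684 and 1565 in Slc26a4+/+, with overlapping groups. Their part in the P2rx2 result was not tested. Hair cells and neurons also use P2X2 receptors. Of their markers, 0 of 5 and 0 of 6 passed the limma test (0 and 1 at an unadjusted p under 0.05), and 1 of 5 and 1 of 6 were above background in a genotype, with summed hair cell signals of 477 to 742 in Slc26a4-/- against 414 to 792 in Slc26a4+/+. The summed neuron signals did not overlap and were 344 to 531 in Slc26a4-/- against 572 to 735 in Slc26a4+/+. The 1 neuron marker above background, Prph, had 81.5, 94.3 and 119 in Slc26a4-/- against 280, 368 and 115 in Slc26a4+/+, with overlapping groups. The other neuron markers were below background on all 6 arrays, so their sum does not show a fall of neuronal RNA.

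P2rx4, whose channels open to ATP at the plasma membrane and in lysosomes, was measured by 4 probe sets. The brightest, 1425525_a_at, had 1607, 1788 and 1511 in Slc26a4-/- against 1496, 1288 and 1086 in Slc26a4+/+ and was above background on all 6 arrays. The groups did not overlap, but by a margin of 1511 in the lowest Slc26a4-/- array to 1496 in the highest Slc26a4+/+ array. The log2 fold change was 0.35 ± 0.16 (SE, 95% interval −0.0049 to 0.71, n = 3 each; adjusted p = 0.429 by limma). The other 3 probe sets gave log2 fold changes of −0.45 (1446429_at), 0.21 (1441772_at) and 0.25 (1452527_a_at), so the probe sets of P2rx4 did not share a direction. At 1446429_at the signals were 239.4, 232 and 218 in Slc26a4-/- against 193, 278 and 576 in Slc26a4+/+, of which Slc26a4+/+ replicate 3 stood apart.

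P2rx7, the receptor that opens at high ATP and drives the NLRP3 inflammasome in macrophages, stayed near background. Its probe set 1439787_at had 175, 259 and 151 in Slc26a4-/- against 113, 113 and 209 in Slc26a4+/+, of which only Slc26a4-/- replicate 2 was above background. The groups overlapped, with a log2 fold change of 0.45 (95% interval −0.36 to 1.26) and an adjusted p of 0.698 by limma. The probe sets 1422218_at and 1419853_a_at were below background on all 6 arrays. P2rx3, a subunit of the channels of sensory neurons, had signals of 75.9 or less on every array at each of its 3 probe sets, all below background, and no fold is given.

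Of the P2Y receptors, P2ry14 encodes the Gi-coupled receptor for UDP-glucose and UDP. Its probe set 1424733_at had signals of 289, 466 and 472 in Slc26a4-/- against 119, 202 and 130 in Slc26a4+/+ stria vascularis. The groups did not overlap, and Slc26a4-/- replicate 1 was lower than the other Slc26a4-/- arrays. The log2 fold change was 1.45 ± 0.31 (SE, 95% interval 0.76 to 2.13, n = 3 each), with a limma adjusted p of 0.0499. The bound of the estimate against background was 1.55-fold, again without sampling error.

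This adjusted p lies just under the threshold. The call was lost without any single array, at adjusted p of 0.0558 to 0.28, and under most of the other settings, at values from 0.0509 with the Gapdh ratio as a covariate to 0.822 with log2 Xist, where the log2 fold change was 0.70. Most macrophage markers rose beside P2ry14. Of 13 measured, 9 rose and 0 fell, with a median log2 fold change of 1.80 against −0.03 over all genes and a summed signal of 22264 to 24952 in Slc26a4-/- against 5658 to 8121 in Slc26a4+/+. Of the first 3, the pan-leukocyte marker Ptprc had 919, 919 and 1001 in Slc26a4-/- against 284, 200 and 194 in Slc26a4+/+. Cd68, a lysosomal marker of macrophages, had 1313, 1441 and 1278 in Slc26a4-/- against 125, 174 and 211 in Slc26a4+/+. Adgre1, a surface marker of macrophages, had 1673, 1414 and 1554 in Slc26a4-/- against 508, 1028 and 713 in Slc26a4+/+ and did not pass (adjusted p = 0.0513). Their part in the P2ry14 result was not tested.

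The Gq-coupled receptors showed no called change. P2ry6, the receptor for UDP, had 242, 262 and 231 in Slc26a4-/- against 227, 218 and 216 in Slc26a4+/+. The groups did not overlap, but the log2 fold change was 0.15 ± 0.23 (SE, 95% interval −0.36 to 0.66; adjusted p = 0.855 by limma), and only 1 Slc26a4+/+ array was above background. P2ry2, the receptor for ATP and UTP, had 160, 223 and 233 in Slc26a4-/- against 222, 247 and 167 in Slc26a4+/+. Its log2 fold change was −0.04 (95% interval −0.68 to 0.59; adjusted p = 0.973 by limma) and changed sign when the arrays were centred on the median or quantile normalized.

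P2ry1, the ADP receptor of platelets and other cells, had 113, 62.8 and 29.0 in Slc26a4-/- against 326, 106 and 61.8 in Slc26a4+/+. Only Slc26a4+/+ replicate 1 was above background. The log2 fold change was −1.12 with a 95% interval of −2.67 to 0.42 and an adjusted p of 0.589 by limma, so the interval reached from a large fall to a small rise. P2ry4, the marginal cell receptor for UTP, is X-linked. It had 135, 166 and 157 in Slc26a4-/- against 119, 173 and 143 in Slc26a4+/+, below background on all 6 arrays.

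P2ry12, the Gi-coupled ADP receptor of platelets and microglia, had 135, 186 and 172 in Slc26a4-/- against 160, 139.8 and 236 in Slc26a4+/+, below background on all 6 arrays. Of 6 platelet markers and 5 microglia-associated markers, 0 and 0 passed the limma test, and 3 of each list were above background in a genotype. At an unadjusted p under 0.05, 1 platelet marker was lower, and of the microglia-associated markers 1 was higher and 1 lower. The ratio that the study's methods used for a gene, the mean signal in Slc26a4-/- over that in Slc26a4+/+ averaged over its probe sets, was above 1.3 for P2rx2 (2.67), P2ry14 (2.72) and P2rx7 (1.43) and below its inverse for P2ry1 (0.415). Of these, P2rx7 and P2ry1 were not above background in a genotype. The study gave a fold only where enough of a gene's probes were called Present, a condition not applied here. For P2rx7 the ratios of its probe sets were 1.34, 0.813 and 2.13.

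**Figure D2:**
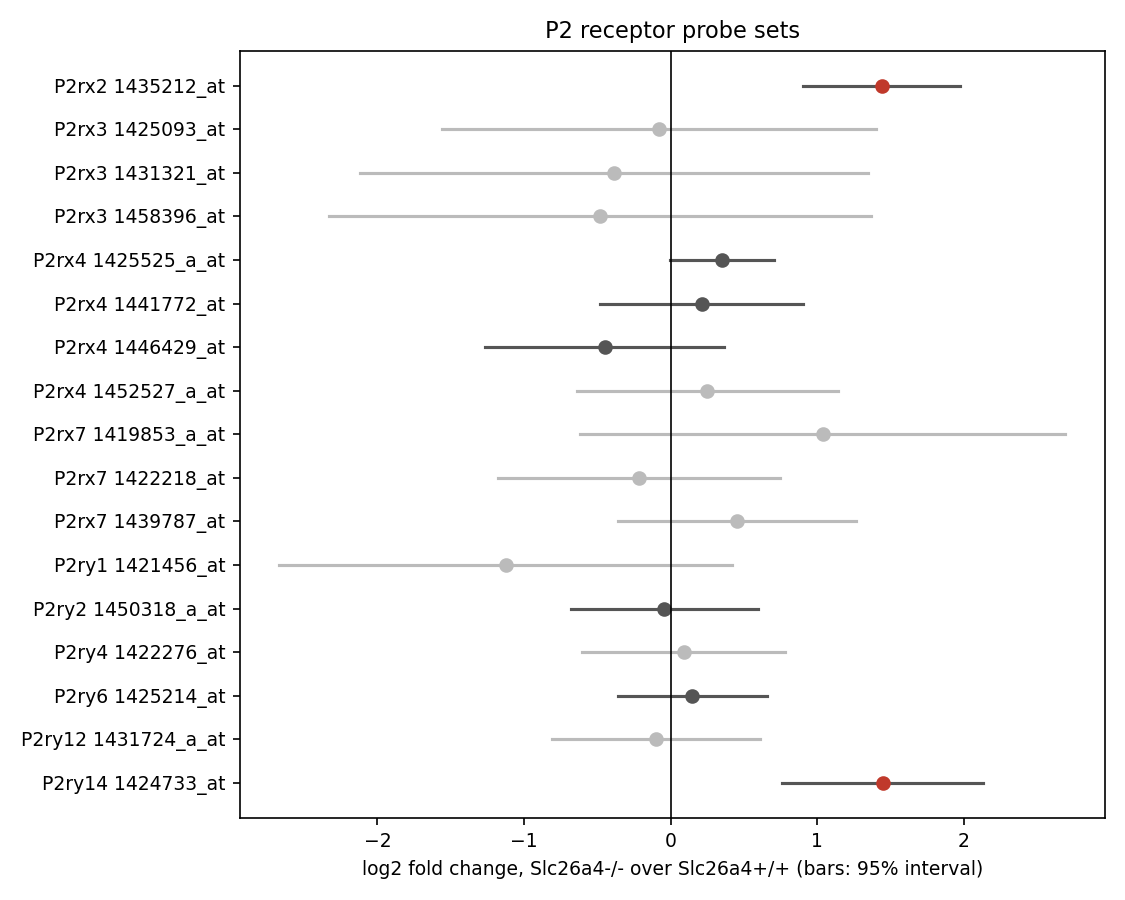
Log2 fold change, Slc26a4-/- over Slc26a4+/+, of the 17 P2 receptor probe sets (horizontal axis), with 95% intervals from limma. Red points passed the threshold, dark grey points were above background in a genotype, and light grey points were not. Only the intervals of P2rx2 and P2ry14 lie wholly above 0.

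P2ry14, P2ry13 and P2ry12 follow each other on chromosome 3, with 1 protein-coding gene between P2ry14 and P2ry13 and 0 between P2ry13 and P2ry12. P2ry13, a Gi-coupled ADP receptor of myeloid cells, is no member but had 320, 367 and 351 in Slc26a4-/- against 119, 218 and 268 in Slc26a4+/+. Its groups did not overlap, and it was above background on all 3 Slc26a4-/- arrays and on 0 of the 3 Slc26a4+/+ arrays. Its signals on Slc26a4+/+ replicates 2 and 3 exceeded every Slc26a4-/- background but not their own. The log2 fold change was 0.85 ± 0.31 (SE, n = 3 each; adjusted p = 0.296 by limma), and the bound against background was at least 1.34-fold. It passed the threshold with the Gapdh ratio as a covariate (adjusted p = 0.0264) but not with array weights (0.0548), without the variance trend (0.476), without any single array (0.129 to 0.645) or with log2 Xist as a covariate (0.918, log2 fold change 0.37). The one other fit in which it passed (0.0272) left a single Slc26a4+/+ array, so that the spread came from the Slc26a4-/- arrays alone, and was added after the data were seen.

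The promoter sequences of these 3 neighbours are shown because the genes form a cluster on the chromosome that holds the called P2ry14. Each is the run of 250 bases before the gene's start on the minus strand of GRCm38.p6, from RefSeq. For P2ry14, which has 4 listed starts, the outermost is given. The capitals mark matches, on either strand, to GAGGAA, the core bound by the myeloid factor PU.1, and to TGACTCA, the AP-1 site.
P2ry14 (chr3:59153493-59153742): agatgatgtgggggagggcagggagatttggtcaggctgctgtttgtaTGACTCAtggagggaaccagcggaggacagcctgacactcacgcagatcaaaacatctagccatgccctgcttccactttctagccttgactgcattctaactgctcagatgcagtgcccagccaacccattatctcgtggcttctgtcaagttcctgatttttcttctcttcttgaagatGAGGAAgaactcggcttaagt
P2ry13 (chr3:59210883-59211132): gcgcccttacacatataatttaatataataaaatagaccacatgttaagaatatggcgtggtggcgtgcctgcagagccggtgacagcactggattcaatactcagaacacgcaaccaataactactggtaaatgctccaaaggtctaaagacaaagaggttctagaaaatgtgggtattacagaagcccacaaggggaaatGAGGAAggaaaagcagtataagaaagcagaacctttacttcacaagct
P2ry12 (chr3:59262986-59263235): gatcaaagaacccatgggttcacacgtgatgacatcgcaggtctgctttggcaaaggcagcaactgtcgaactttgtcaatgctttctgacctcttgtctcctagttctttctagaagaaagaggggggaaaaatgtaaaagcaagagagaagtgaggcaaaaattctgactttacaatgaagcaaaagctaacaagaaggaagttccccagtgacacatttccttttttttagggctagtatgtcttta
The P2ry14 run holds 1 GAGGAA, starting 21 bases before the gene's start, and 1 TGACTCA, starting 202 bases before it, and these do not overlap. The P2ry13 run holds 1 GAGGAA, 48 bases before the start. The P2ry12 run holds neither. Of all 32851 promoter runs of this length, 23.3% hold GAGGAA on a strand, 4.46% hold TGACTCA and 12.4% hold TATAAA, the third motif searched. Among the members, 7 of 10 genes had a promoter entry, with 12 runs in all, 4 of them of P2ry14 and some overlapping. GAGGAA was in 5 of the 12 runs (4 of P2ry14 and 1 of P2ry4), TGACTCA in 2 (P2rx7 and P2ry14) and TATAAA in 1 (P2ry14). The P2ry14 runs of starts 2 and 3 overlap and hold the same GAGGAA match, which is thus counted in both. By gene, GAGGAA was in 2 of the 7, so the count of runs shows no excess over all promoter runs. The matches describe letters and are no sites of binding.

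The patterns most like those of the called receptors over the 6 arrays were taken from 10621 genes above background. For P2rx2 these were Car3 (Pearson r = 0.995), Snx11 (0.993) and Hsd17b4 (0.992), and for P2ry14 Pdzk1ip1 (0.997), H2-Aa (0.99) and Spred1 (0.989). Car3 is also in the list of fibrocyte markers above. H2-Aa, a chain of the class II antigen-presenting molecule, had 1710, 3272 and 3169 in Slc26a4-/- against 479, 960 and 727 in Slc26a4+/+. The others did not pass by limma (adjusted p of 0.227 to 0.819). Their log2 fold changes were 0.32 (Car3), 0.37 (Snx11), 0.10 (Hsd17b4), 0.38 (Pdzk1ip1) and 0.40 (Spred1). A high r thus does not mean a change of like size. The arrays share the genotype difference, and 465 and 391 genes had an r above 0.9 with P2rx2 and P2ry14.

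The genes that release, break down and relay the nucleotide signal were compared next. Among the 5 other P2 receptors, 0 passed the limma test (2, P2ry10 and P2ry13, at an unadjusted p under 0.05) and 1, P2ry13, was above background in a genotype. Of all 18193 genes, 1542 were higher and 1168 lower at that unadjusted level. Of 8 ecto-nucleotidases, 1 rose and 0 fell (1 higher and 1 lower at an unadjusted p under 0.05). Entpd3, which hydrolyses extracellular nucleoside triphosphates and diphosphates, had 675, 615 and 605 in Slc26a4-/- against 170, 149.6 and 270.0 in Slc26a4+/+. The groups did not overlap, and the log2 fold change reached 1.73 ± 0.25 (SE; adjusted p = 0.00843 by limma). The bound of the estimate against background was 2.44-fold. The call was lost without any single Slc26a4-/- array, at adjusted p of 0.0546 to 0.0676.

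Of 9 genes of ATP release (pannexins, connexins, Slc17a9 and others) and 6 of adenosine receptors and handling, 0 and 0 passed the limma test. At an unadjusted p under 0.05, 1 gene of ATP release was higher and 0 lower, and of adenosine 1 was higher and 2 lower. Of 11 genes that relay P2Y signals, 1 fell and 0 rose (1 lower and 1 higher at an unadjusted p under 0.05). Itpr2, an inositol trisphosphate receptor that releases stored Ca2+, had 945, 958 and 819 in Slc26a4-/- against 1867, 2417 and 1927 in Slc26a4+/+. Every Slc26a4-/- array was below every Slc26a4+/+ array, and the log2 fold change was −1.18 ± 0.16 (SE; adjusted p = 0.00508 by limma), at the brightest of its 6 probe sets. Of the other 5, 1427287_s_at passed as well (adjusted p = 0.00224), 3 were lower without passing (adjusted p of 0.0607 to 0.0827), and 1427693_at had a log2 fold change of 0.13 (adjusted p = 0.914). Marginal cell markers moved in the same direction as Itpr2. Of 8 measured, 2 fell and 0 rose, 8 were lower at an unadjusted p under 0.05, the median log2 fold change was −0.60, and the summed signal was 29582 to 31261 in Slc26a4-/- against 42557 to 53333 in Slc26a4+/+, with all 8 above background in a genotype. Their part in the Itpr2 result was not tested. A second, dimmer probe set of Gnai2, a Gi subunit, also passed: 1419449_a_at had 1242, 1339 and 1359 in Slc26a4-/- against 735, 833 and 776 in Slc26a4+/+ (adjusted p = 0.029), while the brightest Gnai2 probe set did not.

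Of 8 genes that act with P2X7 and the inflammasome, 1 rose and 0 fell (3 higher and 0 lower at an unadjusted p under 0.05). Pycard, the adaptor that joins the NLRP3 sensor to caspase 1, had 1437, 1349 and 1522 in Slc26a4-/- against 680, 582 and 582 in Slc26a4+/+. The groups did not overlap, and the log2 fold change was 1.23 ± 0.15 (SE; adjusted p = 0.00313 by limma), at its brightest probe set 1417346_at. Its probe sets 1446926_at and 1417347_at, below background on all 6 arrays, had log2 fold changes of 0.05 and −0.58 and did not pass. The calls on Entpd3, Itpr2 and Pycard were lost without the variance trend (adjusted p of 0.104 to 0.13) and with log2 Xist as a covariate (0.148 to 0.241). The median log2 fold change was 0.12 for the 10 P2 receptors, of which 5 were above background in a genotype, and −0.03 for all genes. The median of the 5 other P2 receptors, 0.42, is the value of P2rx6, which was below background on all 6 arrays, and 1 of the 5 was above it in a genotype. The other medians were 0.30 for ecto-nucleotidases, −0.01 for ATP release, −0.05 for adenosine, 0.09 for P2Y signalling and 0.18 for the inflammasome genes.

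**Figure D3:**
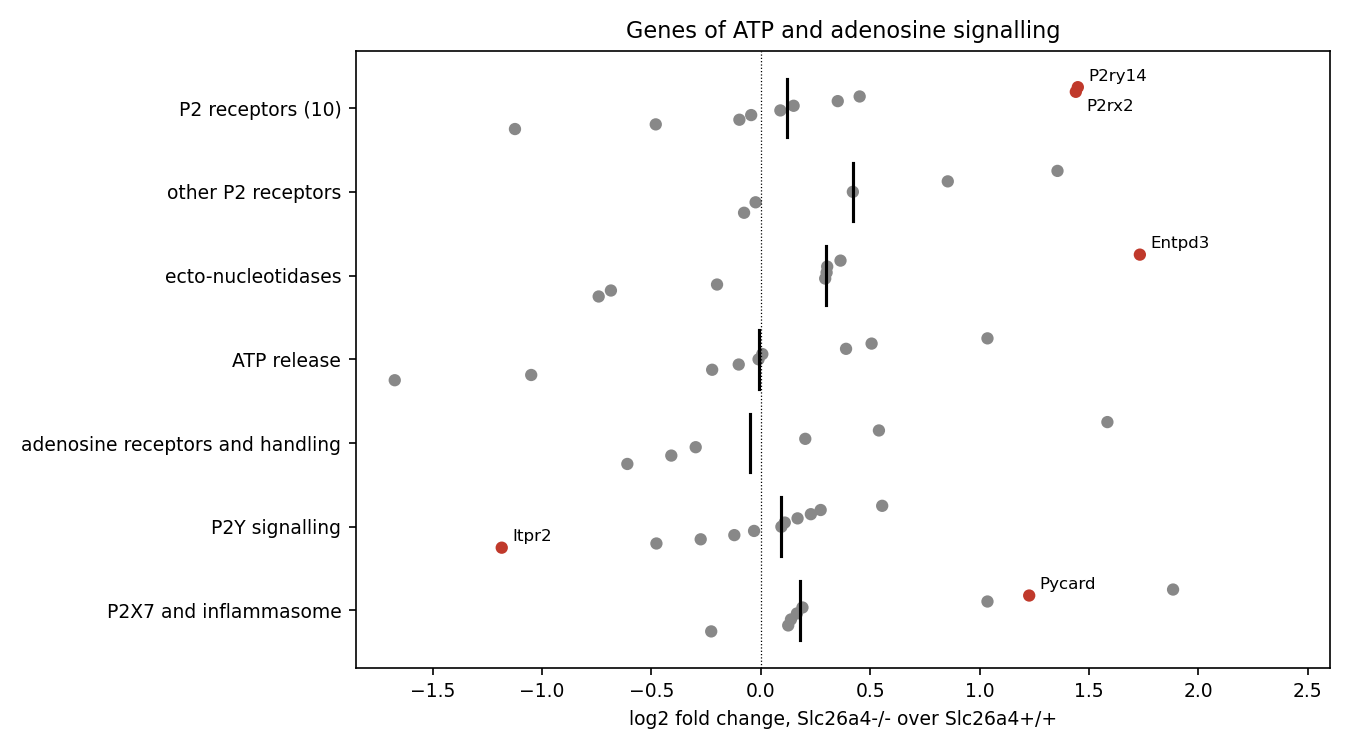
Log2 fold change, Slc26a4-/- over Slc26a4+/+ (horizontal axis), of each measured gene of the P2 receptors and of 6 lists of genes of nucleotide signalling, 1 point per gene. Red points passed the threshold and are named, and black bars are the medians of all measured genes of a list, those below background included. Itpr2 is the red point left of 0.

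**Figure D4:**
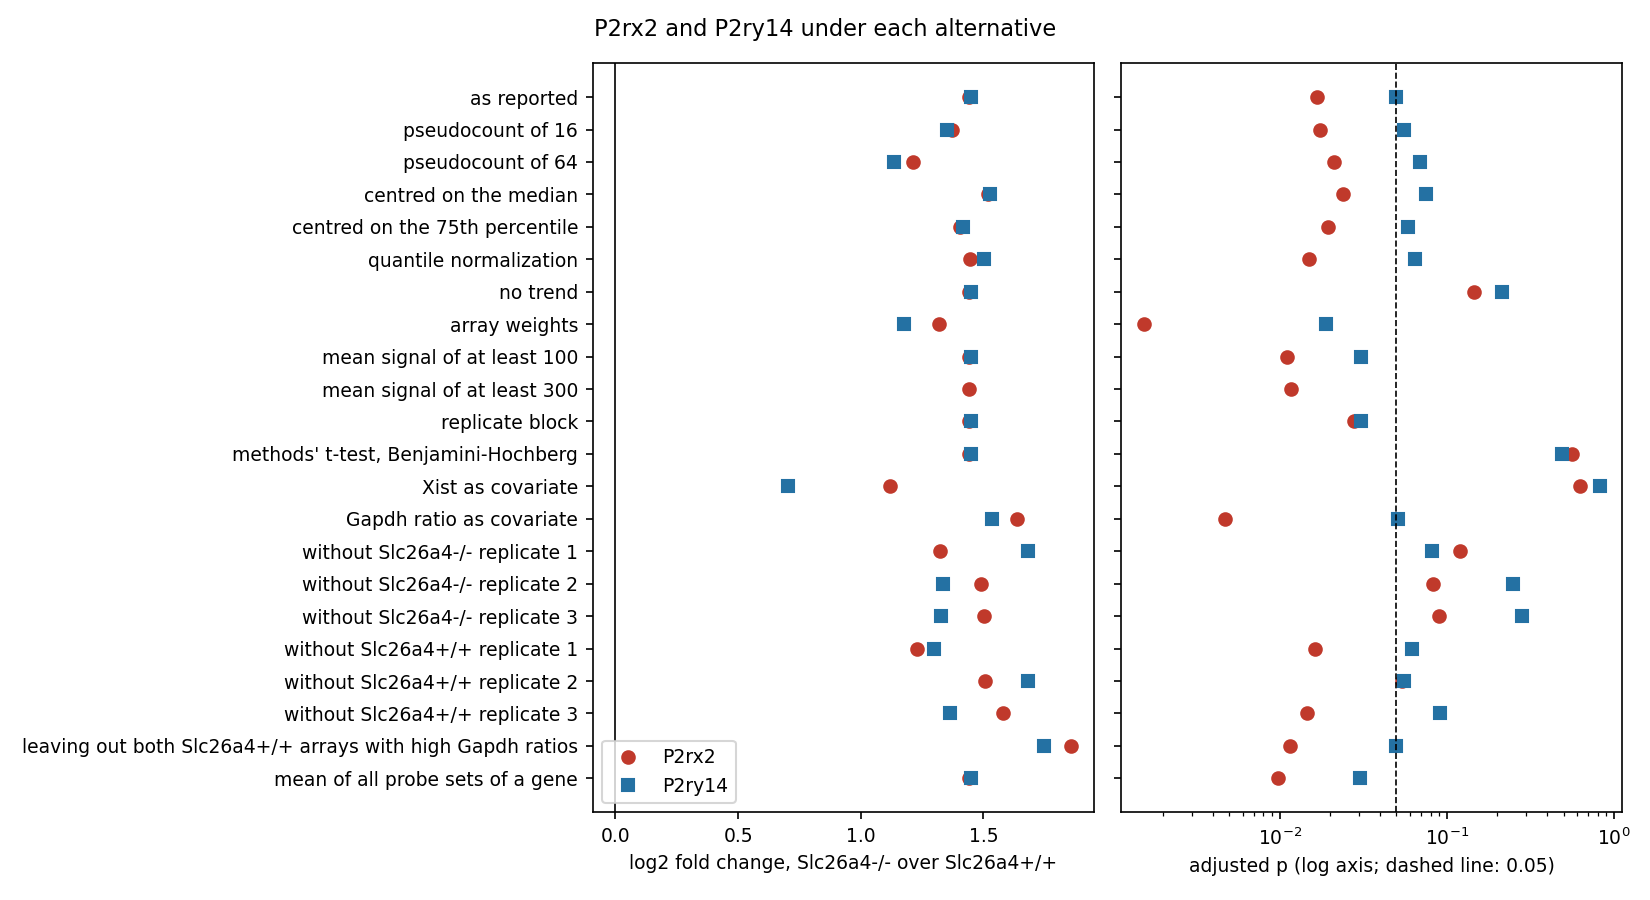
Log2 fold change (left) and adjusted p (right, log axis) of P2rx2 (circles) and P2ry14 (squares) in the reported fit and under each alternative that gives an adjusted p, with P2ry14 not tested at a mean signal of at least 300. All log2 fold changes lie above 0, from 0.70 to 1.86, while the adjusted p crosses the dashed line at 0.05 under several settings.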

How the data were processed

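RNA of microdissected stria vascularis was hybridised to Affymetrix mouse 430 2.0 arrays, 3 of each genotype. The deposited intensity values are GCOS signals, which the authors' software background-corrected and scaled per array on a linear scale. Neither the GCOS version nor the scaling target is stated in the labels or methods used here. After 64 control probe sets were left out, 45037 remained, of which 34945 carried a single symbol. Signals were set to at least 1 (172 values were lower) and log2-transformed. Genotypes were compared by limma 3.58.1 in R 4.3.3 (two-sided, with a trend of the variance on the signal, Benjamini-Hochberg over all probe sets, threshold 0.05), and the procedure was tested on simulated data. The simulated noise was independent between arrays and its spread followed the signal alone. That test therefore did not cover the differences in sex transcripts and Gapdh ratio between the real arrays. Nothing in the labels says whether arrays of a genotype came from separate litters, so p-values measure only the spread between these pools. The number of arrays limits the precision.

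The members and gene lists were chosen with earlier results of these data known. The genes named were all members, the genes of the pathway lists past the threshold, the first 3 fibrocyte and macrophage markers, and the 3 genes most like each called member. Other markers are given by counts and summed signals, except Car3 and Prph. H2-Aa was given with values, and the Gnai2, P2ry13, Car3 and Prph values were added, after they were seen. The fold changes of the other like genes and of the dimmer Pycard probe sets were also added then. The background set first held 43 olfactory receptor probe sets; the probe set of 1 pseudogene was added after values were seen, and both versions are given in the closing section. The alternatives were pseudocounts of 16 and 64, other centring, quantile normalization, no trend, array weights and filters at a mean signal of 100 and 300. Further ones were a block by replicate number, a paired t-test by title number, signals averaged by gene, covariates and leaving out arrays. Leaving out Slc26a4+/+ replicates 2 and 3 together was added after the data were seen. Promoters were cut to the 250 bases before the start.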

Additional observations from a re-analysis of the deposited data

How the results depend on the processing

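The number of P2 receptor genes and of probe sets called, 2 in each case, was 1 with pseudocounts of 16 and 64, after median or 75th percentile centring, with quantile normalization, with a mean signal of at least 300 and with the Gapdh ratio as a covariate. It was 0 without the trend, with log2 Xist as a covariate and by the paired t-test after Benjamini-Hochberg adjustment. That t-test, on arrays paired by title number, gave 3 calls at an unadjusted p under 0.05 (P2rx2 and P2ry14 higher, P2ry1 lower). Leaving out 1 array gave 0 to 1 calls. Wherever 1 remained it was P2rx2. The cause was not tested. In the fit with the replicate block the count was 2. Deviations from the genotype mean correlated at 0.094, 0.027 and 0.029 between arrays of the same title number. For arrays of different numbers the correlations ran from −0.096 to 0.070. These small values cannot decide whether the titles' numbers pair the arrays. By adjusted p, P2rx2 passed under 14 of 21 alternatives and P2ry14 under 5 of 20 (it was not tested at a mean signal of at least 300), each with a positive log2 fold change throughout. Both tallies include the fit with a single Slc26a4+/+ array described below, which is no support for a call. They also include a fit on signals averaged by gene. P2rx2 and P2ry14 have 1 probe set each, so that fit left their log2 fold changes as they were and is no separate check of them. P2ry2 reversed to 0.036 after median centring and 0.055 with quantile normalization, and its range without 1 array was −0.21 to 0.13. P2rx4 and P2ry6 kept their direction and stayed short of the threshold under all alternatives run.

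Over the whole table, 778 probe sets were called, 68.8% of them higher in Slc26a4-/-. Median centring gave 448 calls, 80.1% higher, no trend 114, array weights 4084, log2 Xist 27, the Gapdh ratio 1231, the t-test 3980 unadjusted and 0 adjusted, and leaving out 1 array 219 to 1714. Without Slc26a4+/+ replicates 2 and 3, chosen after the data were seen, there were 1304 calls and 2 among the P2 receptors. This fit has a single Slc26a4+/+ array, assumed to vary like the Slc26a4-/- arrays, so it is no support for those calls. In it the median of all probe sets shifted by 0.10. Probe sets above background numbered 7, 8 with the 90th and 3 with the 99th percentile. With 43 olfactory receptor probe sets they numbered 7, and the bounds were 2.28-fold for P2rx2 and 1.54-fold for P2ry14. Signals at or below background limit P2rx3, P2rx7, P2ry1, P2ry4 and P2ry12, whose changes were not detectable here.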
